A study of Mus musculus with 8 samples.

Results

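The genes described here are 10 cardiac transcription factors and coactivators, chosen by symbol: Gata4, Nkx2-5, Tbx5, Tbx20, Hand2, Mef2a, Mef2c, Mef2d, Srf and Myocd. They are 10 of 14578 genes in the deposited table and account for 28 of its 33027 transcripts. The 8 libraries, of 3 genotypes, were made from left ventricle RNA of mice 6 months old, on a C57 genetic background. There were 3 libraries of mdx sln+/- mice, which lack dystrophin and are heterozygous for a loss of Sln, 3 of mdx mice, which lack dystrophin, and 2 of wild-type (WT) mice. The mdx allele is thus shared by both mutant groups. Dystrophin links the cytoskeleton of a muscle cell to its membrane, and Sln encodes sarcolipin, an inhibitor of the SERCA calcium pump. The genotypes are germline and not restricted to the heart, and the labels give neither the sex of the mice nor whether each library came from a separate animal, so the p-values below stand for differences among libraries, which may be technical.

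GATA4, NKX2-5, TBX5, TBX20 and HAND2 build the heart in the embryo and go on binding the regulatory regions of sarcomere, ion channel and natriuretic peptide genes in the adult. They act in combination, often on the same enhancer. MEF2 factors and SRF belong to the MADS-box family, and each takes part of its activity from partners: MEF2 is held inactive by class IIa histone deacetylases, and SRF is switched on by myocardin or by actin-sensing myocardin-related factors. Mechanical load, calcium and stress kinases are known to act on these proteins by phosphorylation, export from the nucleus and changes of partner, which RNA levels do not show.

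The deposited values are log2 abundances that sum to between 780262 and 924253 per library on the linear scale. Depth is unknown because no counts are given, and division by transcript length is not stated, so levels are compared between libraries and never between genes. Dmd was at 4.09, 4.10 and 4.25 on the log2(value + 1) scale in mdx sln+/-, at 4.30, 4.32 and 4.22 in mdx and at 6.60 and 6.98 in WT, lower in every mdx and mdx sln+/- library than in WT. Of 9 ventricular cardiomyocyte markers all were measured, with a summed log2 level of 15.62 to 15.70 in mdx sln+/-, 15.63 to 15.73 in mdx and 15.49 to 15.54 in WT, and 0 of them passed the test in any comparison (3 of them had an unadjusted p under 0.05 against WT in each mutant group). Summed macrophage markers lay at 7.89 to 8.08 in mdx sln+/-, 7.83 to 8.09 in mdx and 7.45 to 7.58 in WT. Of 7 markers 3 passed as higher in each mutant group. At an unadjusted p under 0.05 there were 7 in mdx and 5 in mdx sln+/- against WT. A fit with the group as its only term passed 5 as higher and 1 as lower in mdx. In mdx sln+/- it passed 4 as higher and 0 as lower. Summed markers of smooth muscle and pericytes lay at 9.25 to 9.57, 9.26 to 9.66 and 9.14 to 9.15 in the same order of groups. The single markers differ from their sum: the median difference of the 7 smooth muscle and pericyte markers against WT was -0.47 in mdx sln+/-, with 0 of 7 passing (3 at an unadjusted p under 0.05), and 0.03 in mdx, with 1 passing (Notch3, higher). Fibroblast markers (10.51 to 10.63, 10.38 to 10.56, 10.25 to 10.81) and endothelial markers (9.30 to 9.41, 9.23 to 9.45, 9.09 to 9.30) overlapped in their sums between mutant and WT libraries. Of 7 fibroblast markers Col1a1 passed as higher in both mutant groups, and of 7 endothelial markers Emcn passed as higher in both and Vwf as lower in mdx, with 5 of 7 endothelial markers at an unadjusted p under 0.05 in each mutant group against WT. The Y-linked gene Eif2s3y ran from 0.92 in WT 2 and 1.31 in mdx sln+/- 3 to 6.11 in WT 1, so the libraries differ in their RNA of Y-linked genes. In every transcript the mean of mdx sln+/- 2 and mdx 2 equals the mean of the other 4 mutant libraries to within 5.13e-05, as a correction that takes out this contrast would leave it. A term for this contrast was kept in the fit, called the removed-correction term below, which leaves 4 residual degrees of freedom. The libraries mdx sln+/- 1, mdx sln+/- 2, mdx 1 and mdx 2 have indexed sample names and all WT libraries plain ones, and a batch behind the names and the genotype cannot be told apart except through mdx sln+/- 3 and mdx 3.

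All 10 factors passed the filter on low values, and none passed the test in any of 3 comparisons (limma, Benjamini-Hochberg over 13783 genes, threshold 0.05). Of all genes 15.9% passed in mdx sln+/- against WT (9.41% higher, 6.5% lower) and 15.1% in mdx against WT (8.15% higher, 6.94% lower). Between mdx sln+/- and mdx no gene passed (0 of 13783, with 1186 at an unadjusted p under 0.05), so nothing was detectable there for the factors. At an unadjusted p under 0.05 there were 4 of 10 factors in mdx against WT, where 32.5% of all genes reached it, 1 of 10 in mdx sln+/- against mdx, where 8.6% did, and 1 of 10 in mdx sln+/- against WT, where 33.7% did. With 10 factors, these counts lie near or below the shares of all genes. The fit without the term for the removed correction passed 3 of 10 factors in mdx against WT, Myocd and Nkx2-5 as higher (14.8% of all genes were) and Tbx5 as lower (12.7%), with 27.6% of all genes in either direction. For mdx sln+/- against WT it passed Tbx5 as lower (11.4% of all genes, with 17.6% higher and 29% in either direction), and for mdx sln+/- against mdx 0 of 10 factors and 0% of genes. The comparisons with WT share the WT libraries, and WT has 2 of them, so both lean on the same 2 values.

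**Figure D1:**
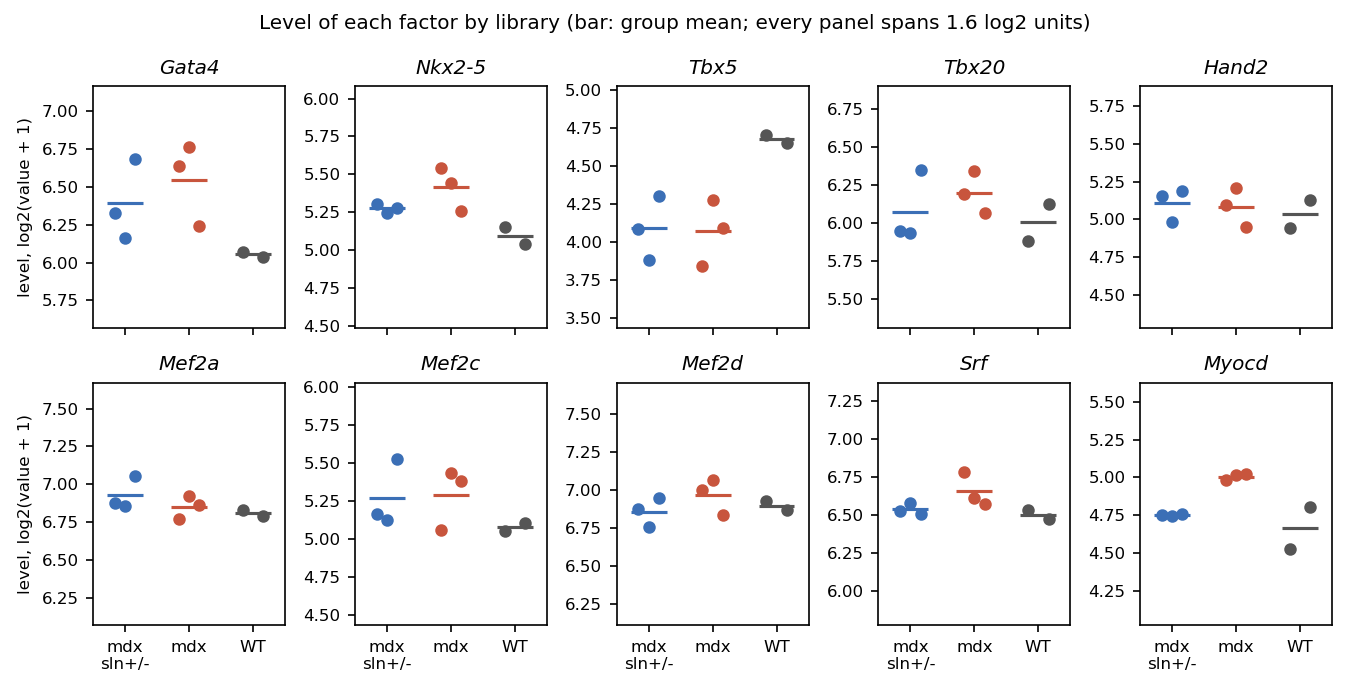
Level of each of the 10 factors on the log2(value + 1) scale (vertical axis) in every library, grouped as mdx sln+/-, mdx and WT; points are libraries and bars group means. Tbx5 lies at 3.84 to 4.30 in all 6 mutant libraries, below both WT libraries at 4.65 and 4.71, while the other factors differ by at most 0.73 over all 8 libraries.

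The differences were small in size. Against WT, 9 of 10 factors in mdx had a positive difference, with a median of 0.18 against 0.02 over all genes, and the differences ran from -0.61 for Tbx5 to 0.50 for Gata4. The 95% intervals of 7 of 10 factors lay within a 1.5-fold change either way and those of all 10 within a 2-fold change. Against WT, 8 of 10 differences in mdx sln+/- were positive, with a median of 0.08 against 0.05 over all genes, and 8 of 10 intervals lay within 1.5-fold. Between mdx sln+/- and mdx 3 of 10 were positive, with a median of -0.12 against 0.03 over all genes, and all 10 intervals lay within 1.5-fold. Libraries of the groups did not overlap for 5 of 10 factors in mdx against WT (Gata4, Nkx2-5, Srf and Myocd higher, Tbx5 lower; 51.4% of all genes, 27.8% higher and 23.6% lower). They did not overlap for 1 of 10 in mdx sln+/- against mdx (Myocd, lower; 24.8% of all genes, 16.8% higher and 8% lower) and for 5 of 10 in mdx sln+/- against WT (Gata4, Nkx2-5, Mef2a and Mef2c higher, Tbx5 lower; 59.8%, 36.4% higher and 23.5% lower). These are bulk samples of a whole ventricle wall, in which fewer cells of a type and less RNA per cell cannot be told apart.

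**Figure D2:**
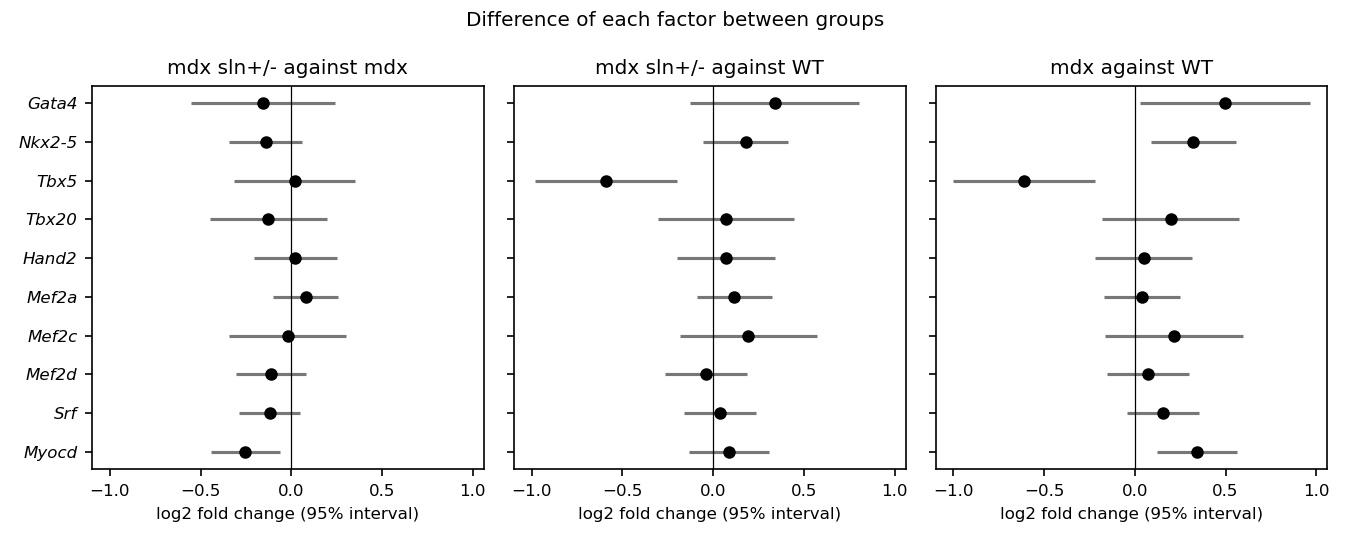
Fitted log2 fold change of each factor (horizontal axis) with its 95% interval, for mdx sln+/- against mdx, mdx sln+/- against WT and mdx against WT. Intervals that leave out 0 are those of Tbx5 in both comparisons with WT, of Gata4, Nkx2-5 and Myocd in mdx against WT, and of Myocd in mdx sln+/- against mdx, all before adjustment over the genes tested.

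Tbx5 was the factor with the largest difference. It encodes a T-box factor needed for septation and for the conduction system, and its loss of function causes Holt-Oram syndrome in humans. The gene lies on chromosome 5 (119834663 to 119885219, plus strand, GRCm38). Its level was 4.09, 3.88 and 4.30 in mdx sln+/-, 3.84, 4.28 and 4.09 in mdx, and 4.71 and 4.65 in WT. All 6 mutant libraries lay below both WT libraries, and the mutant groups overlapped each other. The log2 difference between mdx and WT was -0.61 ± 0.17 (SE), or 1.52-fold lower, and its limma adjusted p of 0.0503 missed the threshold. For mdx sln+/- against WT it was -0.59 ± 0.17, with a 95% interval of -0.98 to -0.20 (adjusted p = 0.0529). Between mdx sln+/- and mdx it was 0.02 ± 0.14, with an interval of -0.31 to 0.35.

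The call of Tbx5 turned on the setting. It passed under 7 of 22 alternatives in mdx against WT and under 8 of 22 in mdx sln+/- against WT, with the same sign in all of them. Without the removed-correction term the limma adjusted p was 0.0204 in mdx against WT and 0.0219 in mdx sln+/- against WT, and with median-ratio scaling it was 0.0417 and 0.0391. With 1 library left out, mdx against WT gave a call without mdx sln+/- 3 (adjusted p = 0.0439) and without mdx sln+/- 2 (0.0197), and mdx sln+/- against WT without mdx 1 (0.0436) and without mdx sln+/- 2 (0.0493). Leaving out mdx 2 in place of mdx sln+/- 2 gives the same estimates, since the removed-correction term then takes up the other of the pair. A fit of only the 2 groups compared also gives these estimates against WT. There the term marks mdx 2 or mdx sln+/- 2 alone, which takes that library out of the difference. These settings among the 22 are thus 1 estimate and not separate evidence. With name style as a term the difference was -0.49 in mdx against WT (adjusted p = 0.164) and -0.47 in mdx sln+/- against WT (adjusted p = 0.163). Among libraries with plain names the levels were 4.30 in mdx sln+/- 3, 4.09 in mdx 3 and 4.71 and 4.65 in WT. Nearly all of the gene's level came from Tbx5-201, the 9-exon transcript, at 4.02, 3.79 and 4.25 in mdx sln+/-, 3.77, 4.22 and 3.98 in mdx and 4.63 and 4.58 in WT. The shorter Tbx5-202 lay at 0.74 to 0.91 in mdx sln+/-, 0.75 to 1.20 in mdx and 1.12 to 1.27 in WT.

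Gata4, a zinc finger factor that activates natriuretic peptide and myosin genes and takes part in hypertrophic growth, had the highest positive difference. It lies on chromosome 14 (63198922 to 63271692, minus strand). Its level was 6.33, 6.16 and 6.68 in mdx sln+/-, 6.64, 6.76 and 6.24 in mdx, and 6.07 and 6.04 in WT. Every mutant library was above both WT libraries, but the spread within a mutant group (SD 0.27 in each) was far wider than between the WT libraries. The difference was 0.50 ± 0.20 in mdx against WT, 1.41-fold with an interval of 1.02- to 1.95-fold (limma adjusted p = 0.133), and 0.34 ± 0.20 in mdx sln+/- against WT (adjusted p = 0.27). Without mdx 3, the lowest mdx library, the difference in mdx became 0.72 (adjusted p = 0.0491), and without mdx sln+/- 3, the highest mdx sln+/- library, that in mdx sln+/- became 0.13 (adjusted p = 0.682). With the highest transcript in place of the sum the difference in mdx sln+/- was 0.036 (adjusted p = 0.898).

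The table holds 4 transcripts of Gata4. Gata4-203 begins at an exon of its own, has 6 exons, and codes for 708 bases, against 1326 in Gata4-201 and 1323 in Gata4-202, which have 7 exons each. The coding parts of Gata4-201 and Gata4-202 differ by 3 bases at 1 exon junction (chr14:63204756-63204758, minus strand), shown here because reads over this junction are among the few that tell these transcripts apart. The capitals mark the 3 bases, with 10 bases of each neighbouring side in lower case (GENCODE M21 transcripts, GRCm38, 5′ to 3′).
Gata4-201: cccaatctcgTAGatatgtttga
Gata4-202: cccaatctcgatatgtttga

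Gata4-203 was at 5.06, 4.79 and 5.34 in mdx sln+/-, 5.01, 5.33 and 4.82 in mdx, and 4.41 and 4.32 in WT. Of the 3 longer Gata4 transcripts it alone kept all mutant libraries above both WT libraries. Its difference was 0.70 ± 0.20 in mdx sln+/- against WT (limma adjusted p = 0.0663 over 29021 transcripts) and 0.69 ± 0.20 in mdx against WT (adjusted p = 0.0753). Without the removed-correction term both passed (adjusted p = 0.0288 and 0.033), and the difference in mdx sln+/- also passed without mdx sln+/- 2 (0.0216), which is the same estimate as without mdx 2. Gata4-202 was at 4.70, 4.63 and 4.93 in mdx sln+/-, 5.30, 5.31 and 4.94 in mdx and 4.58 and 4.85 in WT, so the mdx sln+/- libraries lay below all mdx libraries and around the WT ones. Its difference was -0.43 ± 0.14 in mdx sln+/- against mdx (adjusted p = 0.467) and 0.47 ± 0.16 in mdx against WT (adjusted p = 0.116). Gata4-201 overlapped between all groups, at 4.36 to 5.01 in mdx sln+/-, 4.14 to 4.86 in mdx and 4.17 to 4.55 in WT. The shortest transcript, Gata4-204, was at 0.853 to 1.33 in mdx sln+/-, 0.94 to 1.41 in mdx and 0.71 to 0.851 in WT. Its mutant libraries thus also lay above both WT libraries, by little and near the limit of the filter.

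Nkx2-5, the homeodomain factor that marks cardiomyocytes from the earliest progenitors on, lies on chromosome 17 (26838664 to 26841565, minus strand) and has 1 transcript in the table. It was at 5.30, 5.25 and 5.28 in mdx sln+/-, 5.55, 5.45 and 5.26 in mdx, and 5.15 and 5.04 in WT. Every mutant library was above both WT libraries, and the mdx sln+/- libraries lay together (SD 0.03) at the low end of the mdx range. The difference was 0.32 ± 0.10 in mdx against WT (1.25-fold, limma adjusted p = 0.0705), 0.18 ± 0.10 in mdx sln+/- against WT (adjusted p = 0.245) and -0.14 ± 0.09 in mdx sln+/- against mdx (adjusted p = 0.657). In mdx against WT it passed under 4 of 22 alternatives, among them without the removed-correction term (adjusted p = 0.0268) and without mdx 3 (0.0288). With name style as a term its difference was 0.24 (adjusted p = 0.223).

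Tbx20 and Hand2 showed the groups mixed together. TBX20, a T-box factor that keeps adult mouse cardiomyocytes contractile, is encoded on chromosome 9 (24718138 to 24774284, minus strand). It was at 5.94, 5.93 and 6.35 in mdx sln+/-, 6.19, 6.34 and 6.07 in mdx, and 5.88 and 6.13 in WT. The difference was 0.20 ± 0.16 in mdx against WT and -0.13 ± 0.14 in mdx sln+/- against mdx. HAND2, a basic helix-loop-helix factor first needed for the right ventricle, is encoded on chromosome 8 (57320983 to 57324633, plus strand). It was at 5.15, 4.98 and 5.19 in mdx sln+/-, 5.09, 5.21 and 4.95 in mdx, and 4.94 and 5.13 in WT, the narrowest range of the 10 factors (0.26 over 8 libraries). Its 95% interval ran from 0.86- to 1.25-fold in mdx against WT and from 0.87- to 1.26-fold in mdx sln+/- against WT. The sign of its difference between mdx sln+/- and mdx (0.02 ± 0.10) turned with median-ratio and upper-quartile scaling.

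The MEF2 genes are read through alternative exons, and the forms that contain a short exon called beta are known mainly from muscle and brain. Mef2a lies on chromosome 7 (67231163 to 67372858, minus strand), Mef2c on chromosome 13 (83504240 to 83667080, plus strand) and Mef2d on chromosome 3 (88142372 to 88172086, plus strand). The beta exons are shown because they tell apart transcripts of the same gene. Their presence did not follow the direction of the levels given below. They sit in Mef2a-208 (chr7:67244521-67244544), in Mef2c-212 and Mef2c-223 (chr13:83654598-83654621) and in Mef2d-203 (chr3:88161781-88161801), and in no other transcript of these genes in the table. Capitals mark the exon and lower case the 10 bases on either side of it in the transcript (GENCODE M21, GRCm38, 5′ to 3′).
Mef2a-208: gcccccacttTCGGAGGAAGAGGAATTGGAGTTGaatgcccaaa
Mef2c-212: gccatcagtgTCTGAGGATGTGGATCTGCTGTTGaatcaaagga
Mef2d-203: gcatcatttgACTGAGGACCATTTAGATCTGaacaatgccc
The Mef2a and Mef2c exons are 24 bases long and share 17 of 24 bases position by position, while that of Mef2d has 21 bases. All 3 are coding and their lengths keep the reading frame.

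Mef2a has a further alternative exon, of 132 bases (chr7:67268269-67268400, minus strand), which is in Mef2a-204 and Mef2a-208 and not in Mef2a-201 or Mef2a-203. It is shown because it tells Mef2a-204 and Mef2a-208 apart from Mef2a-203. It does not follow the direction of their levels: in mdx sln+/- against WT, Mef2a-203 and Mef2a-204 were lower and Mef2a-208 higher. Capitals mark the exon, lower case its neighbours in the transcript.
Mef2a-208: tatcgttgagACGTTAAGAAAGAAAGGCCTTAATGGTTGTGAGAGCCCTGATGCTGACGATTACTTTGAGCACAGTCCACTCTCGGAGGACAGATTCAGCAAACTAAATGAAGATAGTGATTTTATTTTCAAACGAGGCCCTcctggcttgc
Mef2a-204 thus shares this exon with Mef2a-208 and lacks its beta exon, and Mef2a-201 and Mef2a-203 lack both.

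At the level of the gene the MEF2 factors differed little. Mef2a was at 6.88, 6.86 and 7.06 in mdx sln+/-, 6.77, 6.92 and 6.86 in mdx, and 6.83 and 6.79 in WT, with a difference of 0.12 ± 0.09 in mdx sln+/- against WT and 0.04 ± 0.09 in mdx against WT. Mef2d was at 6.87, 6.75 and 6.94 in mdx sln+/-, 6.84 to 7.07 in mdx, and 6.93 and 6.87 in WT. The 95% intervals of both genes stayed within 0.81- to 1.25-fold in all 3 comparisons. Mef2c, which is needed for looping of the embryonic heart, was at 5.16, 5.13 and 5.53 in mdx sln+/-, 5.06, 5.43 and 5.38 in mdx, and 5.05 and 5.10 in WT. Each mutant group of Mef2c held libraries near the WT level and others well above it, and the difference was 0.22 ± 0.16 in mdx against WT (adjusted p = 0.397) and 0.20 ± 0.16 in mdx sln+/- against WT (adjusted p = 0.431).

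Some transcripts of Mef2a differed from WT in opposite directions, none past the threshold. Mef2a-204 was at 2.23, 2.13 and 2.68 in mdx sln+/-, 3.17, 3.05 and 2.28 in mdx, and 3.29 and 3.88 in WT. All mutant libraries lay below both WT libraries, the mdx sln+/- libraries with mdx 3 farthest. Its difference was -1.24 ± 0.33 in mdx sln+/- against WT, 2.36-fold lower, and the limma adjusted p of 0.0521 missed the threshold. It passed without the removed-correction term (adjusted p = 0.0218), in the first repeat columns alone (0.0402) and without mdx 3 (0.0308). Mef2a-203 was at 1.17, 0.95 and 1.45 in mdx sln+/-, 1.51, 1.78 and 1.32 in mdx, and 1.84 and 2.02 in WT, a difference of -0.74 ± 0.21 in mdx sln+/- against WT (adjusted p = 0.0642; 0.024 without the removed-correction term). Mef2a-208, which carries most of the gene's level, was at 6.77, 6.74 and 6.93 in mdx sln+/-, 6.57, 6.77 and 6.75 in mdx, and 6.64 and 6.48 in WT, a difference of 0.26 ± 0.11 in mdx sln+/- against WT (adjusted p = 0.163). Mef2a-201, which like Mef2a-203 lacks both exons, was at 1.78, 2.12 and 1.96 in mdx sln+/-, 1.84, 1.45 and 1.55 in mdx, and 1.39 and 2.27 in WT. Against WT it differed by 0.13 ± 0.28 in mdx sln+/- (limma adjusted p = 0.802), and Mef2a-211 by -0.06 ± 0.15 (0.809).

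Set against each other within a library, Mef2a-208 stood above Mef2a-204 by 4.54, 4.62 and 4.25 log2 units in mdx sln+/-, by 3.40, 3.71 and 4.47 in mdx, and by less in WT, at most 3.34. Every mutant library had a wider gap than both WT libraries. How many of all transcript pairs separate the groups in this way was not counted. A fit of each transcript against the rest of its gene, added after the data had been seen, gave 0 calls among 21 of the factors' transcripts in any comparison, where 3.56% of all 22220 ratios passed in mdx sln+/- against WT, 0% in mdx sln+/- against mdx and 0.801% in mdx against WT. At an unadjusted p under 0.05 it gave 10 of 21 in mdx sln+/- against WT, where 22.2% of all ratios reached it, 3 of 21 in mdx sln+/- against mdx (10.1%) and 3 of 21 in mdx against WT (19.3%). Without the removed-correction term 6 of 21 passed in mdx sln+/- against WT (Gata4-203, Mef2a-203, Mef2a-204, Mef2a-208, Mef2c-202 and Mef2c-212), where 13.1% of all ratios did, and 0 of 21 in mdx sln+/- against mdx (0%) and in mdx against WT (9.02%). With the term, 3 of 21 passed in mdx sln+/- against WT without mdx 1 (Gata4-203, Mef2c-212 and Mef2d-201), where 932 of all 22220 ratios did. Without mdx 3 it was 2 of 21 (Mef2a-204 and Mef2c-212), where 705 of 22220 did. The ratios of 1 gene are bound to each other, so these are not separate findings. In that fit, in mdx sln+/- against WT, Mef2a-204 differed by -1.46 ± 0.36 (adjusted p = 0.0708), Mef2a-203 by -0.88 ± 0.20 (0.062), Mef2a-208 by 1.11 ± 0.28 (0.0769), Gata4-203 by 0.56 ± 0.14 (0.0775) and Mef2c-212 by 0.62 ± 0.15 (0.0714).

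Mef2c-212 has the beta exon, and also differs from Mef2c-202 in its other exons. It was at 4.65, 4.61 and 4.99 in mdx sln+/-, 4.51, 4.80 and 4.67 in mdx, and 4.27 and 4.38 in WT, so that every mutant library lay above both WT libraries. Its difference was 0.42 ± 0.15 in mdx sln+/- against WT (limma adjusted p = 0.114). It stood above Mef2c-202, which lacks the exon, by 2.19, 2.17 and 2.22 log2 units in mdx sln+/-, by 2.03, 1.97 and 1.84 in mdx, and by 1.48 and 1.64 in WT, with no overlap between any of the groups. Over Mef2c-201, which also lacks the exon, it stood by 1.97, 1.99 and 1.93 log2 units in mdx sln+/-, by 1.38 to 2.003 in mdx, and by 1.352 and 1.503 in WT, where the mdx libraries overlapped both other groups. These pairs are among many that were looked at, and the share of all transcript pairs without overlap was not counted. Of all genes 59.8% did not overlap in mdx sln+/- against WT, 51.4% in mdx against WT and 24.8% in mdx sln+/- against mdx. The direction of Mef2c-212 was not shared by every transcript with a beta exon. Mef2d-203 was at 0.72, 0.63 and 0.96 in mdx sln+/-, 1.05, 1.01 and 0.56 in mdx, and 1.33 and 1.22 in WT (-0.50 ± 0.19 in mdx sln+/- against WT, adjusted p = 0.136), and Mef2c-223, which did not pass the filter, was at 0.32 to 0.52 in mdx sln+/-, 0.44 to 0.57 in mdx and 0.66 to 0.68 in WT. Mef2d-202 was at 2.05, 1.76 and 2.14 in mdx sln+/-, 2.68, 2.74 and 2.13 in mdx, and 2.44 and 2.72 in WT, a difference of -0.53 ± 0.20 in mdx sln+/- against mdx (adjusted p = 0.502) and -0.59 ± 0.23 in mdx sln+/- against WT (adjusted p = 0.14).

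**Figure D3:**
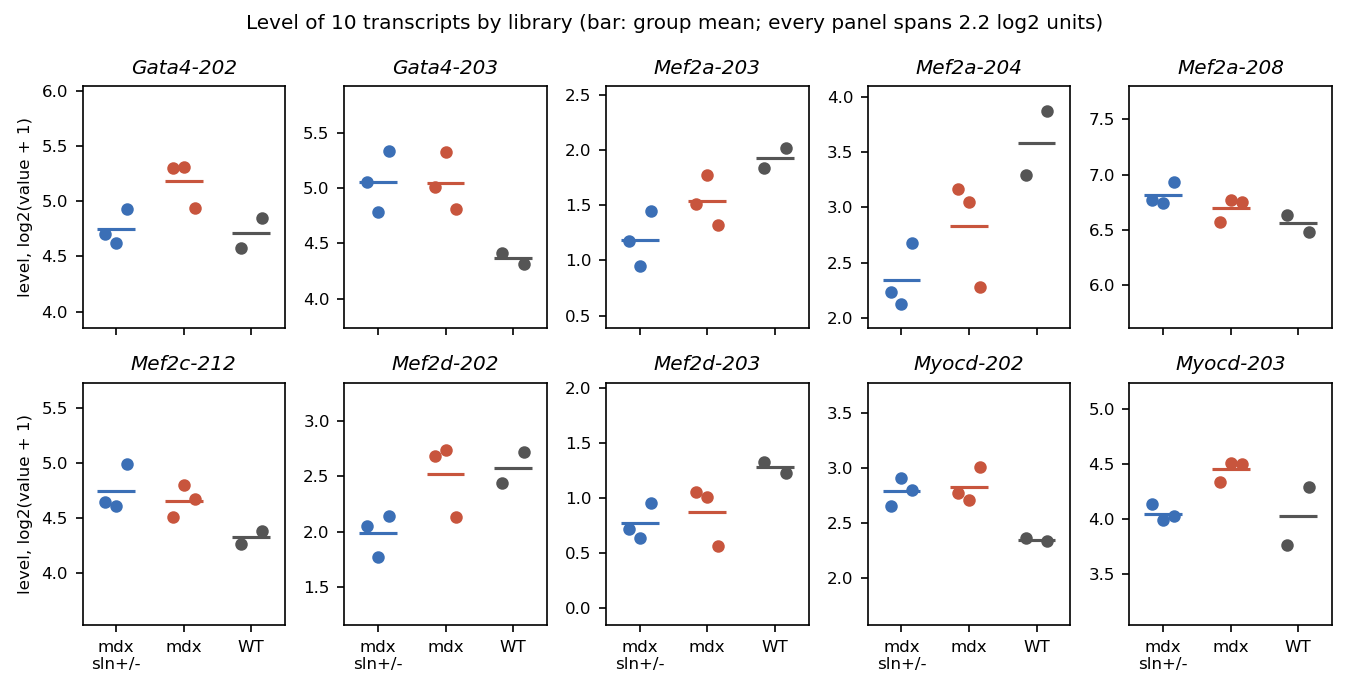
Level of 10 transcripts of Gata4, Mef2a, Mef2c, Mef2d and Myocd with an unadjusted p under 0.05 in any comparison, on the log2(value + 1) scale (vertical axis) in every library, grouped as mdx sln+/-, mdx and WT; points are libraries and bars group means. Mef2a-203 and Mef2a-204 lie lower in the mutant libraries than in WT, and Gata4-203, Myocd-202 and Mef2c-212 higher, with 0 of these passing the test.

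Srf and Myocd form 1 regulatory unit. SRF binds CArG boxes in genes of the actin cytoskeleton and of the immediate early response, and myocardin is its coactivator in cardiac and smooth muscle. Srf lies on chromosome 17 (46546839 to 46556162, minus strand) and was at 6.53, 6.58 and 6.51 in mdx sln+/-, 6.79, 6.61 and 6.57 in mdx, and 6.53 and 6.47 in WT. All mdx libraries were above both WT libraries, by a difference of 0.16 ± 0.08 (limma adjusted p = 0.242) that became 0.065 without mdx 1, the highest mdx library (adjusted p = 0.546), and the mdx sln+/- libraries overlapped both groups. The 95% intervals of Srf lay within 0.82- to 1.28-fold in all 3 comparisons.

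Of the 250 bases before the start of each gene, RefSeq's promoter table (GRCm38.p6) held 9 promoters of 7 of the 10 factors; Gata4, Tbx5 and Myocd had no entry. A CArG box, searched on both strands, was in 1.47% of all 32851 promoters of this length and, among the factors, in that of Srf alone. That promoter (chr17:46556163-46556412, minus strand) is shown because it holds 2 boxes for the gene's own product, in capitals, at 82 to 73 and 62 to 53 bases before the start.
Srf promoter: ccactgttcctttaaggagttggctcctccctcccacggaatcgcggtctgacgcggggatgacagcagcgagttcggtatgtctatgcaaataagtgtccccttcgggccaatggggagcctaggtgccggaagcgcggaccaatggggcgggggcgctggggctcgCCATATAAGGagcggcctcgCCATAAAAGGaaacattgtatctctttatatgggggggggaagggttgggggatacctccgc
The GATA motif GATAA was in promoters of Hand2 and Mef2c (22.6% of all promoters), the T-box motif GGTGTG in Mef2c (16.3%), the NKX2-5 motif AAGTG in Hand2, Mef2c and Srf (40.7%), and the E-box CANNTG, which can share bases with AAGTG, in Hand2, Mef2c and Nkx2-5 (66.2%). The MEF2 site was in 2.92% of all promoters and in 0 of these 9.

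Myocd, on chromosome 11 (65176561 to 65269989, minus strand), was the factor for which the mutant groups did not overlap. It was at 4.75, 4.75 and 4.76 in mdx sln+/-, 4.98, 5.01 and 5.02 in mdx, and 4.53 and 4.80 in WT. The 3 mdx libraries lay above all others, and the mdx sln+/- libraries fell between the 2 WT values. The difference was 0.34 ± 0.09 in mdx against WT (1.27-fold, limma adjusted p = 0.0511) and -0.25 ± 0.08 in mdx sln+/- against mdx (interval -0.44 to -0.06, unadjusted p = 0.0151, adjusted p = 0.578). Set against WT, mdx sln+/- differed by 0.09 ± 0.09. The difference between the mutant groups kept its sign under all 22 alternatives (-0.40 to -0.22), with an adjusted p of at least 0.261. In mdx against WT it passed under 4 of 22 alternatives, among them without the removed-correction term (adjusted p = 0.0167) and without WT 2 (0.0359), and the difference without WT 1 was 0.20 and without WT 2 0.48.

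The main Myocd transcripts differ by an exon of 144 bases (chr11:65184488-65184631) that Myocd-203 has, with 14 exons, and Myocd-202 lacks, with 13. It is shown because Myocd-203 and Myocd-202 had unlike patterns, though Myocd-201, with 10 exons, has it too. Capitals mark the exon, lower case its neighbours in Myocd-203 (GENCODE M21, GRCm38, 5′ to 3′).
Myocd-203: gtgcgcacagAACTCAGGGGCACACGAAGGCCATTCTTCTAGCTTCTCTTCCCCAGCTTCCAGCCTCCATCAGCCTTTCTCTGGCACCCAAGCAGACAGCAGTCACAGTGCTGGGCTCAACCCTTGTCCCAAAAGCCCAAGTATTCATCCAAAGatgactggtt
Myocd-203 was at 4.13, 3.99 and 4.02 in mdx sln+/-, 4.33, 4.51 and 4.50 in mdx, and 3.76 and 4.29 in WT. The mdx sln+/- libraries lay below all mdx libraries and within the WT range, a difference of -0.40 ± 0.14 in mdx sln+/- against mdx (limma adjusted p = 0.491) and 0.42 ± 0.17 in mdx against WT (adjusted p = 0.152). Myocd-202 was at 2.66, 2.92 and 2.80 in mdx sln+/-, 2.77, 2.71 and 3.01 in mdx, and 2.36 and 2.34 in WT. Here both mutant groups lay together above WT, by 0.44 ± 0.15 in mdx sln+/- (adjusted p = 0.0993) and 0.48 ± 0.15 in mdx (adjusted p = 0.0878), and both passed without the removed-correction term (0.0358 and 0.0293). Myocd-201 was at 2.21, 2.27 and 2.37 in mdx sln+/-, 2.56, 2.19 and 1.78 in mdx, and 2.58 and 2.27 in WT. It differed by -0.25 ± 0.24 in mdx against WT (limma adjusted p = 0.551). The transcripts with the exon thus did not share 1 pattern.

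The share of all genes that passed moved with the setting, and the factors' calls are to be read against it. Given first for mdx sln+/- against WT and then for mdx against WT, it was 14.9% and 13.9% with eBayes without trend, 12.9% and 12.4% in the first repeat column, 12.1% and 12.1% in the second, 13.8% and 12.3% with the highest transcript, 16.8% and 15.6% with a mean log2 level of at least 2, 14.9% and 14.2% with no filter, and 15.9% and 15% with a pseudocount of 0.1. Scaling gave 15.1% and 15.2% by median ratio and 14.9% and 15.1% by upper quartile, a replicate block 17.1% and 17.4%, name style as a term 5.16% and 4.06%, and a fit of only the 2 groups compared 14.8% and 4%. None of these passed a gene between mdx sln+/- and mdx.

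**Figure D4:**
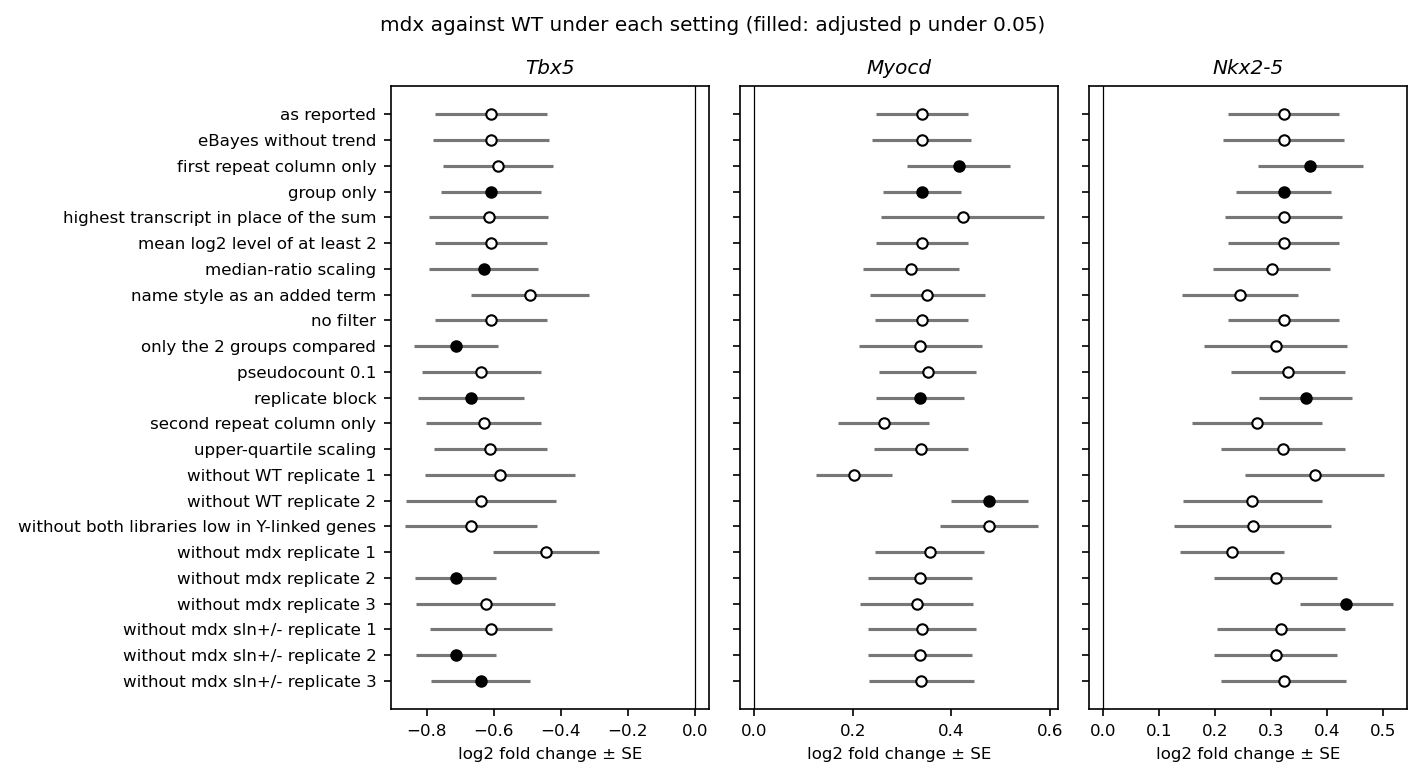
Log2 fold change of Tbx5, Myocd and Nkx2-5 in mdx against WT (horizontal axis, with its SE) under the reported fit and each of 22 alternatives (vertical axis); filled points have an adjusted p under 0.05. The sign holds in every row, while Tbx5 passes in 7, Myocd in 4 and Nkx2-5 in 4 of the 22 alternatives.

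Counted over transcripts, 25 of 28 passed the filter, and 0 of 25 passed the test in any comparison, where 10.1% of all 29021 transcripts passed in mdx sln+/- against WT, 0% in mdx sln+/- against mdx and 8.29% in mdx against WT. At an unadjusted p under 0.05 there were 9, 3 and 6 of 25 in the same order of comparisons, against 28.7%, 9.2% and 26.8% of all transcripts. Without the removed-correction term 5 passed in mdx sln+/- against WT (Gata4-203, Mef2a-203, Mef2a-204, Myocd-202 and Tbx5-201, where 22% of all transcripts passed) and 4 in mdx against WT (Gata4-203, Myocd-202, Nkx2-5-201 and Tbx5-201, where 19.8% did). Non-overlap between groups was not counted over all transcripts, so the separations of single transcripts given above have no such share beside them. Transcripts of 1 gene share most of their sequence, and how the authors divided reads among them is not given, which limits every value per transcript.

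Among other cardiac transcription factors, 12 of 17 listed genes were measured, and 2 were higher and 2 lower in mdx against WT, 8 not passing (median difference 0.01). Tead1, the partner of YAP that binds MCAT elements, fell by 0.49 (SE 0.08, limma adjusted p = 0.013) in mdx against WT and by 0.53 (adjusted p = 0.00935) in mdx sln+/- against WT. Meis1, a homeodomain factor that stops cardiomyocyte division in the newborn mouse, rose by 0.69 ± 0.15 in mdx (adjusted p = 0.0245) and by 0.74 ± 0.15 in mdx sln+/- (adjusted p = 0.0191). Prdm16, a zinc finger regulator of ventricular identity, rose by 0.45 ± 0.12 in mdx (adjusted p = 0.043), and Tbx3, the T-box repressor of the conduction system, fell by 0.52 (SE 0.10) in mdx sln+/- (adjusted p = 0.0193). Tbx3 also passed as lower in mdx, with a difference of -0.40 ± 0.10 (adjusted p = 0.0451). Against WT, 1 of 12 in mdx sln+/- was higher and 3 were lower, and in mdx sln+/- against mdx 0 of 12 passed, where Hey2, a repressor downstream of Notch, had a difference of 0.36 ± 0.14 and Tbx18, a T-box factor of the sinus node and epicardium, one of -0.45 ± 0.19 (each with an adjusted p of 0.578). The call of Tead1 ended without WT 2 in mdx (adjusted p = 0.0629) and without mdx sln+/- 1 in mdx sln+/- (0.058), and that of Prdm16 without any 1 of the 8 libraries (0.0501 to 0.179). That of Meis1 ended without mdx 1, mdx 3, mdx sln+/- 1, WT 1 or WT 2 in mdx (up to 0.0912) and without mdx sln+/- 1, mdx sln+/- 3, WT 1 or WT 2 in mdx sln+/- (up to 0.0751). That of Tbx3 in mdx sln+/- ended without the same 4 (up to 0.101). The call of Tbx3 in mdx was not followed over the alternatives.

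Of 12 partners and repressors of GATA4, NKX2-5, TBX5 and MEF2, 1 rose and 1 fell in mdx against WT (median 0.09). Both encode class IIa histone deacetylases, which bind MEF2 and hold it inactive, and they went in opposite directions. Hdac9 rose by 0.85 ± 0.20 in mdx (limma adjusted p = 0.0317) and by 1.07 ± 0.20 in mdx sln+/- (adjusted p = 0.0157). Hdac4 fell by 0.86 (SE 0.18) in mdx (adjusted p = 0.0213), and its difference in mdx sln+/- was -0.57 ± 0.18 (adjusted p = 0.0675). Against WT, 1 of 12 rose in mdx sln+/- and 0 fell, and in mdx sln+/- against mdx 0 of 12 passed; Hopx, a homeodomain protein that binds SRF and not DNA, had a difference of 0.29 ± 0.09 there (adjusted p = 0.578) and Hdac4 one of 0.29 ± 0.15 (0.617). The call of Hdac9 ended without mdx 1, mdx 3, mdx sln+/- 1, WT 1 or WT 2 in mdx (up to 0.108) and without mdx sln+/- 1, WT 1 or WT 2 in mdx sln+/- (up to 0.0623), and that of Hdac4 without mdx 1 or WT 2 (up to 0.112).

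The 9 listed symbols of SRF partners include Mrtfa and Mrtfb, which are other names of Mkl1 and Mkl2, and the 7 other symbols were all measured. Against WT, in mdx, Mkl1, a myocardin-related factor that actin holds outside the nucleus, rose by 0.66 ± 0.13 (limma adjusted p = 0.0193), Elk3, an ETS partner, rose by 0.55 ± 0.13 (0.0311), and Mkl2, the paralogue of Mkl1, fell by 0.34 (SE 0.08, 0.0295), with 4 of 7 not passing. Among mdx sln+/- libraries 1 rose and 2 fell against WT: Elk3 (0.54 ± 0.13, adjusted p = 0.0327), Mkl2 (-0.30 ± 0.08, 0.0411) and Pdlim5, a Z-disc protein (-0.58 ± 0.08, 0.0079). Between mdx sln+/- and mdx 0 of 7 passed, with Pdlim5 at -0.28 ± 0.07 (adjusted p = 0.578) and Mkl1 at -0.24 ± 0.11 (0.6). The highest adjusted p with 1 library left out was 0.0934 for Mkl1 (mdx sln+/- 1 and WT 2 ended it), 0.0586 for Pdlim5 (mdx sln+/- 1), 0.142 for Elk3 in mdx (mdx 1, mdx sln+/- 1, mdx sln+/- 3 and WT 2), 0.146 for Elk3 in mdx sln+/- (mdx 2, all 3 mdx sln+/- libraries and WT 2), 0.12 for Mkl2 in mdx and 0.17 in mdx sln+/- (both ended without mdx 3, mdx sln+/- 1, mdx sln+/- 3, WT 1 or WT 2, in mdx also without mdx 1). With the highest transcript in place of the sum Mkl1 did not pass (adjusted p = 0.492), nor did Mkl2 in mdx (0.0676) or in mdx sln+/- (0.091), Prdm16 in mdx (0.712) or Tbx3 in mdx sln+/- (0.0643).

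Differences of known target genes spanned a wider range, from -1.96 to 3.18, than those of the factors, from -0.61 to 0.50. Of 6 targets of GATA4, NKX2-5 and TBX5, 3 rose in mdx against WT and 0 fell: Nppb, which encodes B-type natriuretic peptide (1.84 ± 0.39, limma adjusted p = 0.0229), Nppa, which encodes atrial natriuretic peptide (1.12 ± 0.27, 0.0361), and Gja5, which encodes a connexin of the conduction system (0.45 ± 0.09, 0.0241). Of these 0 of 6 passed in mdx sln+/- against WT, with Nppb at 1.23 ± 0.39 (adjusted p = 0.0694) and Nppa at 0.91 ± 0.27 (0.0615); 3 of 6 had an unadjusted p under 0.05. The mutant groups differed in 0 of 6, with Gja5 at -0.23 ± 0.08 (adjusted p = 0.578) and Slc8a1, the sodium-calcium exchanger, at -0.29 ± 0.14 (0.6). The calls ended without mdx 1 or WT 2 for Nppb (up to 0.121), without mdx 1, mdx 3, mdx sln+/- 1 or WT 2 for Nppa (up to 0.159), and without mdx 1, mdx 3, mdx sln+/- 1, mdx sln+/- 3, WT 1 or WT 2 for Gja5 (up to 0.0753). Nppa is also 1 of the 7 listed atrial markers, of which 3 were measured. The median difference of the 3 against WT was -0.34 in mdx sln+/-, with 0 passing, and -0.835 in mdx, with Nppa alone passing, so the other measured atrial markers were negative in both. The part of atrial tissue in the result was not tested.

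Of 6 targets of MEF2, 1 fell and 0 rose in both comparisons with WT. The median difference over the list was 0.17 in mdx and 0.16 in mdx sln+/-. An unadjusted p under 0.05 was reached by 2 of 6 in mdx (32.5% of all genes) and 4 of 6 in mdx sln+/- (33.7%). The group-only fit passed 1 as higher in mdx (14.8% of all genes) and 3 in mdx sln+/- (17.6%), with 1 lower in each. Ppargc1a, the coactivator of mitochondrial biogenesis, fell by 1.65 (SE 0.24, limma adjusted p = 0.00802) in mdx and by 1.41 (SE 0.24, 0.0117) in mdx sln+/-; the call in mdx sln+/- ended without mdx sln+/- 1 or mdx sln+/- 3 (up to 0.0599). Of 9 targets of SRF and myocardin, Egr1, an immediate early factor, rose by 3.18 ± 0.65 in mdx (0.0215) and by 3.17 ± 0.65 in mdx sln+/- (0.0213), Fos, another immediate early factor, rose by 2.09 ± 0.55 in mdx sln+/- (0.0446), and Acta1, skeletal alpha-actin, fell by 1.34 (SE 0.29, 0.0248) in mdx and by 1.96 (SE 0.29, 0.00829) in mdx sln+/-. The other 7 did not pass in mdx and the other 6 not in mdx sln+/-, with a median of 0.03 and -0.47 over the list. Between mdx sln+/- and mdx the test passed 0 of 6 and 0 of 9, with Xirp1, an intercalated disc protein, at -0.30 ± 0.08, Cnn1, which encodes calponin, at -0.56 ± 0.21 and Acta1 at -0.62 ± 0.25 (each with an adjusted p of 0.578), and Nr4a1, a nuclear receptor of the immediate early response, at 0.61 ± 0.33 (0.63). The call of Egr1 ended without WT 2 in mdx (0.117) and without mdx sln+/- 1, mdx sln+/- 3 or WT 2 in mdx sln+/- (up to 0.116), that of Acta1 in mdx without mdx 3, WT 1 or WT 2 (up to 0.092), and that of Fos without any library but mdx sln+/- 3 (up to 0.204). Of the SRF and myocardin targets Acta2, Myh11, Tagln and Cnn1 are also smooth muscle markers, with the values given for that list above.

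The name style of the libraries also bears on these listed genes. With name style as a term the calls of Tead1, Meis1, Prdm16, Hdac4, Mkl1, Mkl2, Elk3, Nppb, Nppa, Gja5 and Acta1 in mdx ended (limma adjusted p = 0.0539 to 0.114), as did those of Tbx3, Mkl2, Elk3 and Fos in mdx sln+/-, each with the same sign. The calls of Hdac9, Ppargc1a and Egr1 in both mutant groups, and of Tead1, Meis1, Pdlim5 and Acta1 in mdx sln+/-, held with that term. A fit of only the 2 groups compared ended the calls of Tead1, Meis1, Prdm16, Hdac4, Mkl1, Mkl2, Elk3, Gja5, Egr1 and Acta1 in mdx and of Fos in mdx sln+/-. Without WT 2 and mdx sln+/- 3, the libraries lowest in Eif2s3y, 0 of the listed genes named above passed, each with the same sign, leaving aside Tbx3 in mdx.

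**Figure D5:**
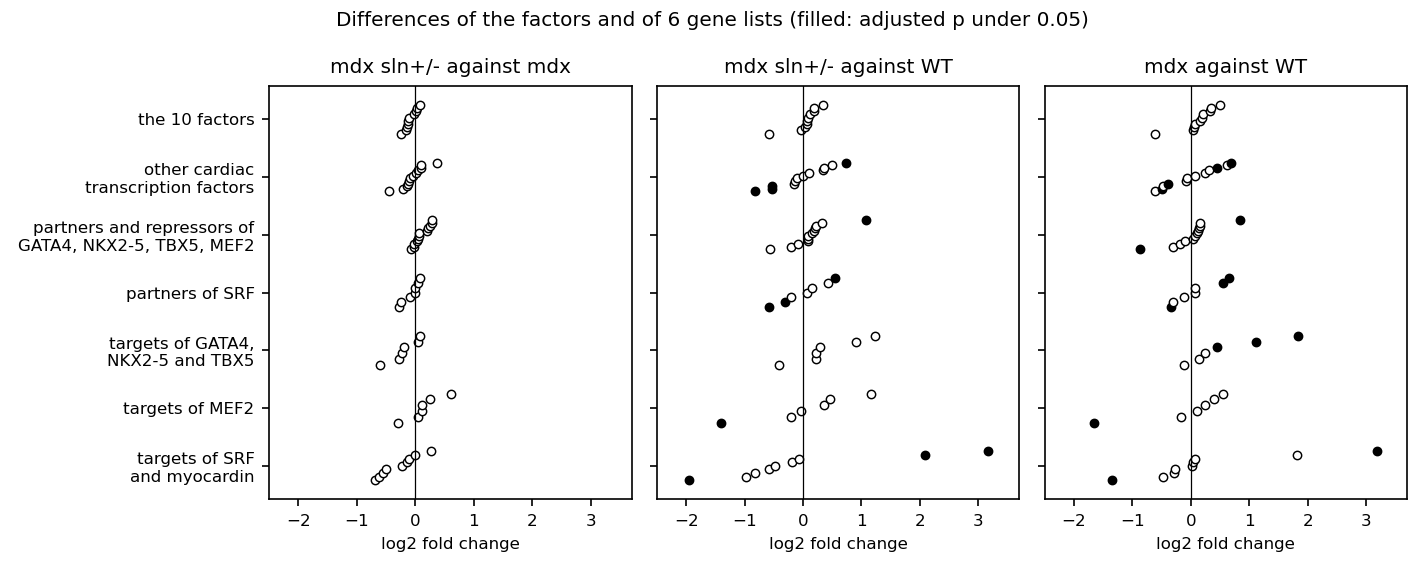
Log2 fold change (horizontal axis) of the 10 factors and of the measured genes of 6 lists (rows), for mdx sln+/- against mdx, mdx sln+/- against WT and mdx against WT; each point is a gene, filled where the adjusted p is under 0.05. The 10 factors lie between -0.61 and 0.50, and the targets of SRF and myocardin spread from -1.96 to 3.18.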

How the data were processed

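The deposited table holds log2 values per transcript, with 16 columns, 2 repeat columns (r1 and r2) for each of 8 libraries; 0 columns could not be mapped. Per the submitters' processing notes mm10, STAR 2.6.1, Partek and limma were used; their roles, the length scaling, the offset and the meaning of r1 and r2 are not given in the sources used here. The values fit log2(value + 1). Repeat columns were averaged as 1 replicate, turned to linear values, summed per gene and logged with a pseudocount of 1. The filter on low values took genes that reached 1 in 2 or more libraries (13783; 795 left out). Because the values are log2 abundances, not counts, limma 3.58.1 (R 4.3.3; empirical Bayes with trend) was fitted to all 8 libraries with the group and the removed-correction term, with Benjamini-Hochberg adjustment over all genes. Without counts, depth and its precision are unknown. A fold change on the log2(value + 1) scale understates the change of low genes. The fit was also run on simulated libraries with independent noise, and the outcome is not given here. Those libraries held no difference by name style or in Y-linked genes, so the run does not bear on such differences.

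The 10 factors and the lists were chosen with earlier results of these data known. Every factor is named; of each list the 3 genes with the smallest adjusted p among those that passed are named, or the 2 with the smallest p where none passed. Genes of like pattern were to be named only for called factors, of which there were none. Gene positions are those of the table, whose end column lies 1 base past GENCODE M21's in 32073 of 32946 transcripts, so 1 was subtracted. Exons and sequences are from GENCODE M21 (GRCm38), which holds all 28 transcripts of the factors, 27 with the same version and ends; Srf-201 has another version. Alternatives were median-ratio and upper-quartile scaling, other filters and pseudocounts, single repeat columns, the highest transcript, other model terms and leaving out libraries. Python 3.11.15, numpy 2.4.6, pandas 2.3.3 and matplotlib 3.10.9 were used. Sln was not analysed here, and 1 exon sequence is not reported here.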

Additional observations from a re-analysis of the deposited data

How the results depend on the processing

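Of 10 factors 0 passed in any comparison with eBayes without trend, no filter, a mean log2 level of at least 2, a pseudocount of 0.1, the second repeat column, the highest transcript, name style as a term, or without both libraries low in Y-linked genes. In mdx against WT 3 passed with the group only, 2 in the first repeat column, and 1 each with median-ratio scaling and with only the 2 groups compared; with 1 library left out it was 0 to 2. In mdx sln+/- against WT 1 passed with the group only, median-ratio scaling, upper-quartile scaling and only the 2 groups compared, and 0 to 1 with 1 library left out. Transcripts of the factors that passed numbered 4 (mdx against WT) and 5 (mdx sln+/- against WT) with the group only, 1 in mdx sln+/- against WT in the first repeat column, and 0 to 1 with 1 library left out in either. Of all transcripts 1483 of 29498 passed in mdx sln+/- against WT in the first repeat column. With 1 library left out, 227 of 28912 to 3234 of 28784 transcripts passed in that comparison. In mdx against WT it was 356 of 28529 to 1829 of 28821. Over all genes, mdx against WT had 3798 calls with the group only, 559 with name style, 545 with only the 2 groups compared, 126 without both libraries low in Y-linked genes and 579 to 1819 with 1 library left out. In mdx sln+/- against WT these were 3996, 711, 2015, 39 and 316 to 2410, and 1297 were higher and 896 lower in the reported fit, against 926 and 1149 with median-ratio scaling. The cause was not tested.

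Signs turned for differences near 0. In the comparison of mdx sln+/- with mdx, Tbx5 was at -0.017 in the first repeat column, -0.016 with median-ratio scaling, -0.0056 with upper-quartile scaling and -0.10 without both libraries low in Y-linked genes. Hand2 was at -0.014 with median-ratio scaling, -0.0033 with upper-quartile scaling and -0.023 without both libraries low in Y-linked genes, and Mef2c at 0.088 with the highest transcript. Mef2d was at 0.058 with the highest transcript and 0.013 with only the 2 groups compared in mdx sln+/- against WT, and Srf at -0.022 with median-ratio scaling and -0.021 with name style. Between mdx and WT, Hand2 was at -0.014 with only the 2 groups compared. With 1 library left out, ranges that crossed 0 between mdx sln+/- and mdx were -0.11 to 0.23 for Tbx5, -0.33 to 0.065 for Gata4, -0.054 to 0.15 for Hand2, -0.16 to 0.12 for Mef2c and -0.28 to 0.016 for Tbx20. For mdx sln+/- against WT they were -0.020 to 0.16 for Hand2, -0.12 to 0.20 for Tbx20, -0.10 to 0.013 for Mef2d and -0.050 to 0.22 for Myocd, and between mdx and WT -0.042 to 0.14 for Hand2. The cause was not tested.

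Whether equal replicate numbers pair the libraries could not be decided from their values. Deviations from the group means of same-numbered libraries correlated at -0.996 to 0.18, the lowest by way of the removed correction. That correction and the means of only 2 or 3 libraries constrain these deviations, so the correlations cannot show whether pairs exist. With a replicate block in place of the removed-correction term 3 factors passed in mdx against WT (Myocd, Nkx2-5 and Tbx5, adjusted p = 0.0463, 0.032 and 0.0341) and 1 in mdx sln+/- against WT (Tbx5, 0.0379), with 2397 and 2363 genes.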
